A study of Mus musculus with 30 samples.

Results

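In motor neurons made from mouse embryonic stem (ES) cells, 6560 of the 19174 regions marked by acetylated histone H3 lysine 27 (H3K27ac) carried neither the promoter mark H3K4me3 nor the homeodomain factor Mnx1. These distal H3K27ac regions without Mnx1, 34.2% of the list, are described here. A region was taken when it shared no base with any wild-type H3K4me3 region and none with any wild-type Mnx1 region. Of the remaining H3K27ac regions, 1472 (7.68%) were distal and overlapped Mnx1, and 11142 (58.1%) overlapped H3K4me3. The choice of the regions therefore used the wild-type H3K27ac, H3K4me3 and Mnx1 lists, and what those 3 lists give is stated as a description, without a test.

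Histone acetylation at H3K27 marks active promoters and enhancers, and monomethylation at H3K4 (H3K4me1) marks enhancers whether or not they are active. Enhancers are stretches of DNA that bind transcription factors and raise the transcription of a gene on the same chromosome, often from many kilobases away and often from within an intron. Mnx1 (HB9) is a homeodomain factor of postmitotic spinal motor neurons, in which Isl1, Lhx3 and Onecut factors also act at distal enhancers, and each of them has sites of its own.

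The study took ES cells through a 6-day induction with retinoic acid (1 µM) and the hedgehog agonist SAG (1 µM), later with doxycycline (1 µM) and the Notch pathway inhibitor DAPT (5 µM). RNA was sequenced from 4 groups of 2 libraries: undifferentiated wild-type ES cells, wild-type motor neurons, and those made from 2 lines that the labels give as Mnx1KO, named HD and EH. Chromatin immunoprecipitation (ChIP) was done in wild-type and HD motor neurons, with 2 libraries each for H3K27ac, H3K4me1, H3K4me3 and H3K27me3 and 1 each for H3K9me3, and Mnx1 was mapped in wild type with 2 libraries. The authors' region lists are 1 per mark and genotype, so they have no spread between replicates. Neither the edit in the lines nor the meaning of HD and EH is given in the sources used here, and no ChIP of EH was analysed here. Nothing in the labels says that the 2 libraries of a group came from separate cultures, so p-values measure the spread between these libraries, which may be technical.

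Several facts on the labels come before the results. All 19176 entries of the list labelled wild-type H3K27ac carry the name K27ac_KO inside the file; the label was followed, and whether the lists of the 2 genotypes were exchanged was not tested. The antibodies listed for ChIP include one to GFP and none to Mnx1, and how Mnx1 was pulled down is not given in the sources used here. Mnx1 RNA was 441 and 399 CPM (counts scaled to the size of the library) in the wild-type motor neuron libraries, 410 and 352 in HD, 518 and 658 in EH and 0.599 and 0.507 in ES cells. Its level did not pass the edgeR test in either line labelled Mnx1KO (adjusted p = 0.977 for HD and 0.064 for EH), and a count per gene cannot check an edit that is not described. Chat, which makes acetylcholine, was at 168 and 128 CPM in wild-type motor neurons and at 0.128 and 0.0662 in ES cells, and the pluripotency factor Pou5f1 was at 7.43 and 8.19 against 1640 and 1490. Library totals ran from 11167500 to 53223215 counts, with the HD libraries the shallowest and the ES libraries the deepest.

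The sequence under a distal region can be shown where an annotated start lies in it, because RefSeq promoter windows (250 bases before to 50 after a start, GRCm38.p6) were at hand. Of 32851 windows, 93 windows of 82 genes lay wholly inside these regions, 18 of them of protein-coding genes and 75 of long noncoding RNA (lncRNA) genes. The first sequence below is the start of the lncRNA Gm31674 (chr11:18747830-18748129, plus strand), inside the longest of the regions. Next come a start of Sema6d, which encodes a transmembrane semaphorin (chr2:124653331-124653630, plus strand), and a start of Grip1, which encodes a scaffold of glutamate receptors (chr10:119819139-119819438, plus strand). The last is the start of Lemd3, an inner nuclear membrane protein (chr10:120979281-120979580, minus strand), shown as an exception. All 4 were chosen after their values were seen, and capitals mark each CG dinucleotide.

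Gm31674: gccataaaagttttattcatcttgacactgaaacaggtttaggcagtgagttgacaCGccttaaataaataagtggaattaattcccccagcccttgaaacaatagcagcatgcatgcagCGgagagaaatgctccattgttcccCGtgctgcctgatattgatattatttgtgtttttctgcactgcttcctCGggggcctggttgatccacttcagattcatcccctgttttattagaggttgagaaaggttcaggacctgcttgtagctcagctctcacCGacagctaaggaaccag
Sema6d: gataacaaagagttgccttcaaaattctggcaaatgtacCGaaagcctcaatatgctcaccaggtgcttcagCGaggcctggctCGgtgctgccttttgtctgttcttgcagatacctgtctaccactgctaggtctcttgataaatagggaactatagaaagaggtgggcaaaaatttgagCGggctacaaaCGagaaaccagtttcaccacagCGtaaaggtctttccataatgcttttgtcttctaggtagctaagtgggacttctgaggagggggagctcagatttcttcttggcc
Grip1: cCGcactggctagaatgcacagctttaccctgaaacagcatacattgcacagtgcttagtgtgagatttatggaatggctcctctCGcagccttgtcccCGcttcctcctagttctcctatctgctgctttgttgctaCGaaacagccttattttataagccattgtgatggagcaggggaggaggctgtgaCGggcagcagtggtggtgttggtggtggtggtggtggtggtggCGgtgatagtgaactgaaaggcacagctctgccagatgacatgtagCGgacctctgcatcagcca
Lemd3: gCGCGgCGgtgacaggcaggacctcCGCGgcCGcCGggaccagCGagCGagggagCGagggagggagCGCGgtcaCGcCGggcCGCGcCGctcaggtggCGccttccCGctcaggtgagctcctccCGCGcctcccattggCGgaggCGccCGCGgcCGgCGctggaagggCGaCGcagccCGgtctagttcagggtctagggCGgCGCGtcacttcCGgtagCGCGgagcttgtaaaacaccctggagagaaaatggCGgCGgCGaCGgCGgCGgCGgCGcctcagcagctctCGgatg

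The first 3 windows hold 5, 6 and 7 CG dinucleotides, and the Lemd3 window holds 45. Over the 93 windows the median was 4 (interquartile range 3 to 6), against 25 (18 to 33) over the windows inside H3K27ac regions with H3K4me3 and 7 over all windows. Windows with 10 or more CG dinucleotides made up 8 of the 93 (8.60%), 93.2% of those in H3K4me3-marked regions and 43.5% of all. The windows inside these distal regions were mostly CpG-poor, and Lemd3 was one of the few of the CpG-island kind. The rule removed every H3K4me3-marked region, so contrasts with those windows, here and in the motif counts below, were partly set by that choice. By kind of gene, the coding windows in the regions had a median of 3 and all coding windows 13, with 10 or more CG dinucleotides in 5.56% and 56.8%. The lncRNA windows in the regions had a median of 5 and all lncRNA windows 4, with 10 or more in 9.33% and 19.1%. The 23 windows inside distal H3K27ac regions with Mnx1 had a median of 4, as the 93 had.

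Short motifs were counted in the same windows on both strands, where a match is only a string of letters. The E-box CAGCTG was found in 26.9% of the 93 windows, in 16.3% of all windows and in 13.7% of those in H3K4me3-marked regions, and the E-box CAGATG in 26.9%, 17.2% and 8.70%. E-boxes are bound by proneural factors such as Neurog2. The homeodomain core TAATTA, a palindrome, was in 7.53%, 5.29% and 1.64%, and the Sp core GGGCGG, typical of CpG-rich promoters, in 15.1%, 35.7% and 71.0%. In the 23 windows inside distal regions with Mnx1 the E-boxes were about as frequent, at 26.1% for CAGCTG and 30.4% for CAGATG. Among lncRNA windows alone the E-box shares were nearer to the background, at 24.0% against 17.7% of all lncRNA windows for CAGCTG and 29.3% against 21.8% for CAGATG.

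RNA of the 3 printed coding genes was higher in motor neurons than in ES cells in every library. Sema6d stood at 36.1 and 33.0 TPM (a level scaled to transcript length and library size) in wild-type motor neurons and at 0.10 and 0.23 in ES cells, and Grip1 at 53.2 and 47.7 against 0.94 and 1.42. Lemd3, with the CpG-rich window, was at 13.0 and 14.3 TPM in motor neurons and at 6.40 and 7.49 in ES cells. These are whole-gene levels that do not say which start was used.

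MicroRNA hairpins lay in 9 of the regions, 11 hairpins of the 1005 in the RefSeq table. A single region in chr5:138165029-138166096 (enrichment 2.26 in wild type, 2.31 in HD) covered the Mir106b, Mir93 and Mir25 cluster, and another in chr15:103284900-103285362 (2.61, not listed in HD) covered Mir148b. The mature forms are printed with the seed, bases 2 to 8, in capitals. miR-93-5p and miR-106b-5p share the seed AAAGUGC, and small RNAs were not measured.

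miR-106b-5p: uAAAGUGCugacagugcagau
miR-93-5p: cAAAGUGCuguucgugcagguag
miR-25-3p: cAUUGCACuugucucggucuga
miR-148b-3p: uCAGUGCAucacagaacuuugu

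The 6560 regions were short and modest in signal. Their median length was 812 bp (interquartile range 548 to 1371, extremes 400 and 12385), against 1584 bp for distal regions with Mnx1 and 1296 bp for regions with H3K4me3, and together they covered 7.06 Mb, 26.3% of the H3K27ac length. The authors' fold enrichment over background had a median of 2.66 (1.86 to 7.75), against 3.27 and 3.83. Their −log10 q had a median of 3.42, with a range of 1.15 to 52.7. By position they were mostly far from genes' starts: the median distance from a region's midpoint to the nearest coding start was 65.8 kb (interquartile range 24.1 to 157), against 91.4 kb for distal regions with Mnx1 and 0.281 kb for those with H3K4me3. In all, 4025 (61.4%) had a coding start within 100 kb, 118 lay within 2 kb of one and 35 contained one. Inside the bodies of coding genes lay 3644 (55.5%), as did 47.1% of distal regions with Mnx1 and 79.4% of regions with H3K4me3.

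**Figure D1:**
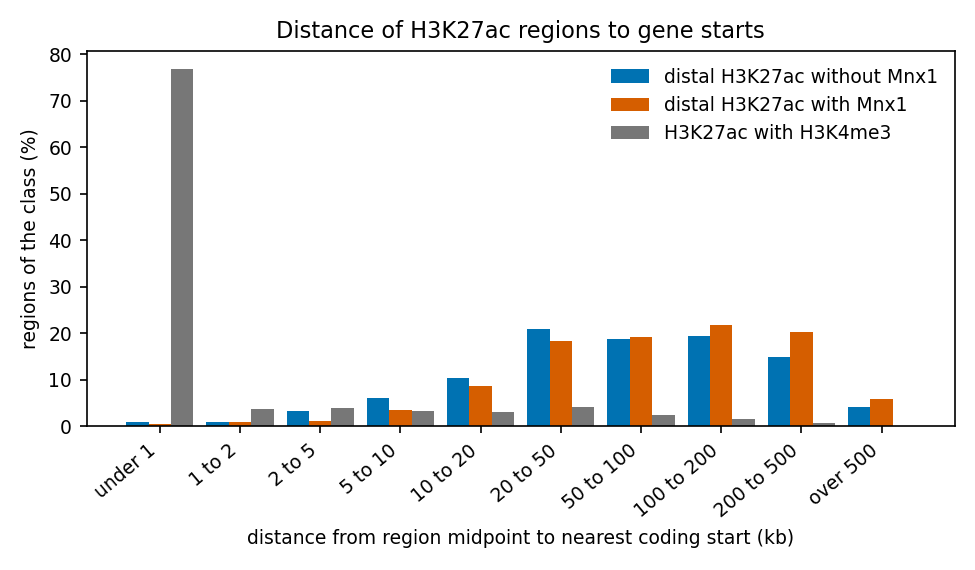
Distance from the midpoint of each H3K27ac region to the nearest start of a protein-coding gene (horizontal axis, kb) against the share of the regions of its class (vertical axis, %). Of the distal regions without Mnx1 (blue), 0.884% lie under 1 kb and 20.9% between 20 and 50 kb, whereas 76.9% of the regions with H3K4me3 (grey) lie under 1 kb.

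The edges of the rule were crossed by a few bases in some places. The members nearest to an Mnx1 region lay 1, 3 and 5 bp from it, near Ptprd, Gas1 and Cdh6, and the regions removed by the smallest Mnx1 overlap shared 3, 5 and 7 bp with it. Those nearest to an H3K4me3 region lay 10, 32 and 37 bp away, and the smallest H3K4me3 overlaps that removed a region were 1, 17 and 26 bp. Most members were far from both edges, with a median gap of 65.4 kb to Mnx1 and 51.2 kb to H3K4me3. Within 5 kb of an Mnx1 region lay 568 members (8.66%).

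The other marks, which the rule did not use, were those of enhancers. H3K4me1 overlapped 6124 of the regions in wild type (93.4%) and 5943 in HD (90.6%), against 79.9% and 67.5% of regions with H3K4me3 and 99.0% and 98.2% of distal regions with Mnx1. In 5920 (90.2%) H3K4me1 covered 50% or more of the region, and in 4547 (69.3%) all of it. The repressive marks were nearly absent: H3K27me3, laid down by Polycomb, overlapped 12 of the regions in wild type (0.183%) and 5 in HD, against 13.0% of the wild-type regions with H3K4me3. Distal regions with Mnx1 were alike, with H3K27me3 at 2 of 1472 in wild type (0.136%). H3K9me3 overlapped 17 of the regions without Mnx1 in wild type and 11 in HD. H3K4me3 appeared in the HD list at 33 of the regions.

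One of the 12 regions with H3K27me3 stood at -6.30 kb from the start of Sox1, counted as negative upstream,, a factor of neural progenitors (chr8:12389011-12389433, 423 bp). Its H3K27ac enrichment was 2.44 in wild type. The strongest HD H3K27ac region that overlapped this place had 7.25, and how far that region extends beyond it was not compared. The nearest wild-type H3K4me3 region lay 297 bp away, and the wild-type H3K27me3 region over this place reached 17.3. Sox1 RNA was 15.5 and 32.5 CPM in wild-type motor neurons, 171 and 160 in HD, 15.1 and 31.9 in EH and 4.84 and 2.23 in ES cells. Both HD libraries were above all others. The log2 fold change of HD against wild type was 2.79 ± 0.43 (SE), with an edgeR adjusted p of 0.077 in the fit of the 6 motor neuron libraries and 0.0021 in the fit of the 4 wild-type and HD libraries. The place was singled out after its values were seen.

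Many of the regions stood in groups. Joined over gaps of up to 12.5 kb they formed 4843 clusters, of which 3736 were single regions (57.0% of the regions) and 56 held 5 or more regions, 363 in all. The most populated cluster had 14 regions in and around Tspan5, which encodes a tetraspanin (chr3:138773892-138843944, 12 of them in the HD list). Clusters of 12 lay near Adamts16 and of 10 near Vapb, the Hox cofactor gene Meis1, the axon guidance gene Slit2 and the adhesion gene Cadm1. A cluster of 9 stood upstream of Mnx1 itself (chr5:29492162-29533175, 7 in the HD list), and one of 8 beside Nefm, which encodes the medium neurofilament subunit (chr14:68176795-68221840, all 8 in the HD list). By chromosome, the share of H3K27ac regions that belonged to the set ran from 14.0% on the X chromosome (64 of 456) to 41.1% on chromosome 14.

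Of the 10 strongest regions, 6 lay more than 100 kb from the nearest coding start, from -170 kb at Syndig1 to -405 kb at Atp2b1, and so had no linked gene. The highest enrichment, 7.75, was at chr4:9135875-9138560 near Clvs1, which encodes a neuronal phosphoinositide-binding protein (6.20 in HD). Next was chr5:29514808-29516946 with 7.71, at -37.4 kb from the start of Mnx1 (negative distances are upstream) (6.56 in HD). The longest region, chr11:18745213-18757597 with 12385 bp, had 7.56 in wild type and 7.68 in HD and had Meis1 as its nearest coding gene, 268 kb away. A region inside Exoc6b (chr6:84638149-84642417, 7.46, 7.20 in HD) had as nearest start that of Cyp26b1, an enzyme that breaks down retinoic acid. The 10 strongest regions were all in the HD list.

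Each region was linked to the coding gene with the nearest start, if within 100 kb, which gave 2284 genes. One region was linked to 1473 of them, 2 to 423, 3 or 4 to 263, and 5 or more to 125, with at most 14. A link is a distance and not a measured contact. Compared with ES cells, 38.8% of all 17770 genes tested were higher and 36.5% lower in wild-type motor neurons by edgeR at an adjusted p under 0.05, with a median log2 fold change of 0.02. Among the 2047 tested genes with a linked region, 1214 (59.3%) were higher and 466 (22.8%) lower, with a median of 0.97. The share rose with the number of regions: 54.5% with 1 region (median 0.65, n = 1298), 61.7% with 2 (1.32, n = 386), 70.6% with 3 or 4 (1.61, n = 245) and 80.5% with 5 or more (2.58, n = 118). Of coding genes with none, 38.5% were higher and 38.2% lower (median -0.01, n = 13072).

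**Figure D2:**
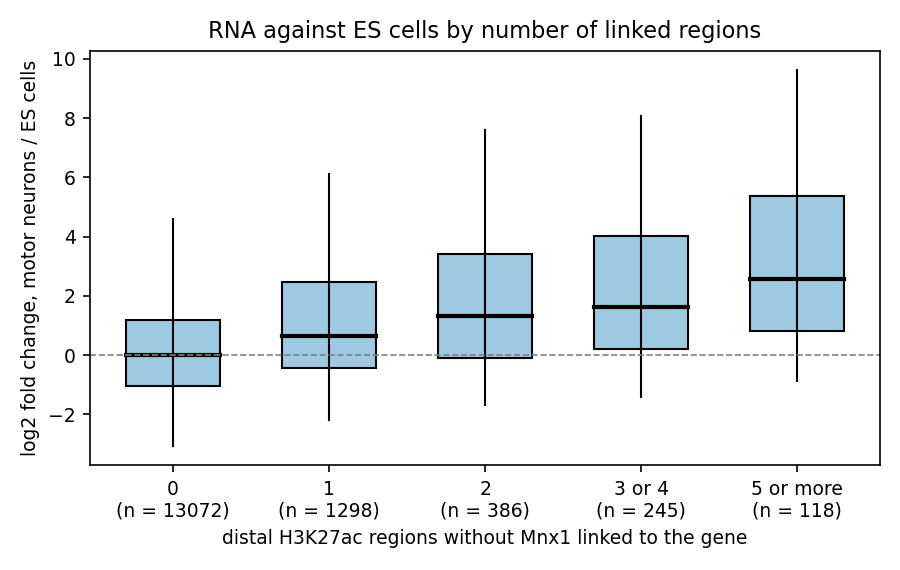
Log2 fold change of RNA between wild-type motor neurons and ES cells (vertical axis) for coding genes grouped by the number of linked distal H3K27ac regions without Mnx1 (horizontal axis). Lines mark the median, boxes the quartiles and whiskers the 5th and 95th percentiles over genes; the median goes from -0.01 with no region to 2.58 with 5 or more.

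Genes without linked Mnx1 regions showed similar shares. Of the 1192 tested genes with these regions and no linked Mnx1 region of any kind, 58.1% were higher in motor neurons and 22.8% lower (median 0.97). Genes that also had a distal region with Mnx1 were higher in 70.1% and lower in 16.0%, and genes with distal Mnx1 regions only in 54.6% and 26.9%. The number of regions, the size of a gene and the space around it go together, and their parts in these shares were not tested.

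Tspan5 (14 regions) was at 24.0 and 35.6 CPM in ES cells and at 133 in both wild-type motor neuron libraries, higher by 2.16 ± 0.24 on the log2 scale (edgeR adjusted p = 6.2e-05). Meis1 (14 regions) was at 2.23 and 3.09 against 192 and 181, a change of 6.13 ± 0.26 (edgeR adjusted p = 4e-07). Cadm1, a homophilic adhesion molecule with 13 regions, was at 52.3 and 51.9 against 372 and 383, and Nrp1, a semaphorin receptor of motor axons with 7, at 1.50 and 2.87 against 404 and 376. No ES library overlapped a motor neuron library for any of these genes. The splicing regulator Rbfox1 (8 regions) stood at 127 and 128 CPM in motor neurons, with 0.0642 and 0.110 in ES cells, and Nyap2 (9 regions), a phosphoprotein of the neuronal PI3-kinase pathway, stood at 122 and 99.6 CPM with 0 counts in both ES libraries.

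Falls were fewer. Sgk1, a kinase induced by stress and hormones, had 4 regions and was at 210 and 196 CPM in ES cells and 17.7 and 17.6 in motor neurons, which gave a change of -3.52 ± 0.11 on the log2 scale (edgeR adjusted p = 1.6e-07). Rbpms, an RNA-binding protein gene with 8 regions, fell by 2.19 on the log2 scale.

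The marker lists with most linked regions in sum were the 2 neuronal ones. By share of genes with a region, floor plate (50%) and axon guidance and adhesion genes (45.5%) stood above pan-neuronal genes (42.1%). Spinal motor neuron genes (35%) stood just below mesoderm, muscle and endothelium genes (36.4%). Of 19 pan-neuronal genes found, 8 had one or more regions (38 regions) and the 19 tested genes of that list, with or without a region, were all higher in motor neurons than in ES cells. Of 20 spinal motor neuron genes, 7 had regions (28 regions), and again all 20 were higher, so the lists do not set apart the RNA of genes with a region. Of all 21025 coding genes matched to RNA, 10.7% had a region. Nefm had 9 regions, at 2.27 to 6.40 enrichment, and was at 1079 and 851 CPM against 1.84 and 3.18 in ES cells. Elavl4, a neuronal RNA-binding protein, had 9 regions and was at 272 and 263 CPM against 1.82 and 1.81. Dcx, a microtubule-binding protein of migrating neurons, had 4 and was at 1261 and 1340 CPM against 0.0428 and 0.176. Mnx1 had 7, Nrp1 7, Arhgap36 4, Nrp2 and Lhx4 3 each, and Ret and Slc18a3 2 each.

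The other lists held fewer regions each. Links were found for 10 of 22 axon guidance and adhesion genes (16 regions), 6 of 24 factors and transmitter genes of other spinal neurons, 5 of 16 neural progenitor genes, 4 of 8 floor plate genes and 3 of 21 Hox genes. Pluripotency genes had links in 2 of 20, endoderm and epithelium genes in 2 of 11, mesoderm, muscle and endothelium genes in 4 of 11, and neural crest genes in 2 of 7. Glial (13) and trophoblast (12) genes had none. Among the regions' genes outside the neuronal lists, Cdh5, a cadherin best known from endothelium, was at 103 and 122 TPM, and Krt18, a keratin of simple epithelia, at 479 and 600 TPM in wild-type motor neurons. Bulk RNA cannot tell fewer cells of a type from less RNA per cell.

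In HD motor neurons 4629 of the 6560 regions (70.6%) overlapped a region of the H3K27ac list, against 90.8% of distal regions with Mnx1 and 96.4% of regions with H3K4me3. The 1931 that did not were weaker and shorter in wild type, with a median enrichment of 2.49 against 2.78 and a median length of 572 against 1015 bp. Only 104 of them had a −log10 q of 5 or more, out of 1907 such regions. To compare regions of similar enrichment, all wild-type H3K27ac regions were put into 5 classes of equal number by enrichment. The share in the HD list rose through the classes from 56.6 to 65.1, 84.7, 96.7 and 100% for the regions without Mnx1, from 67.0 to 83.9, 93.7, 99.4 and 100% for distal regions with Mnx1, and from 79.5 to 94.6, 99.3, 99.9 and 100% for regions with H3K4me3. In the 4 lower classes the regions without Mnx1 had the lowest share. Length was not matched, and regions without Mnx1 were shorter than distal regions with Mnx1 in every class. In class 2 the medians were 744 bp without Mnx1, 963.5 bp with Mnx1 and 823 bp with H3K4me3. In class 3 they were 1199, 1469.5 and 1098 bp. The part of length in these shares was not tested. With 1 list per genotype there is no replicate error to hold these differences against, and a region absent from a list may lie just under the caller's threshold.

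**Figure D3:**
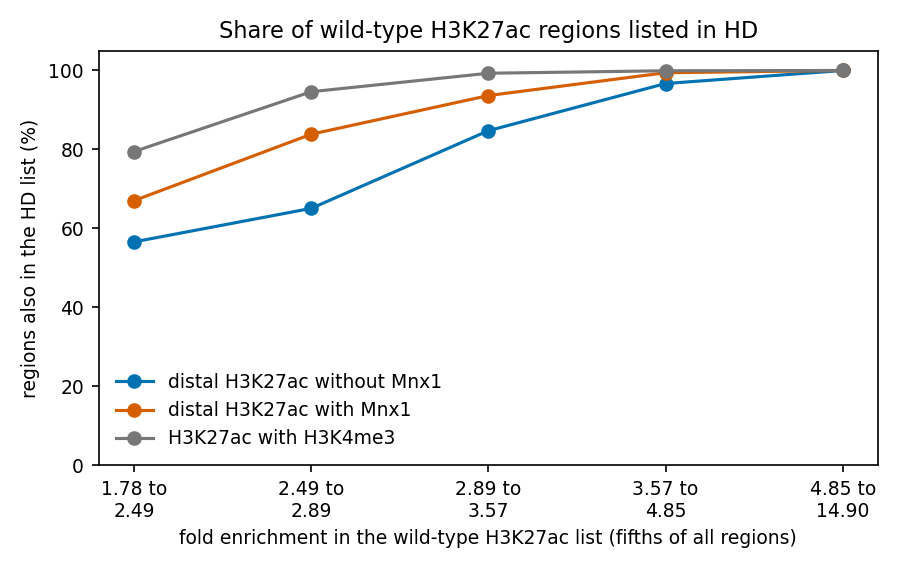
Share of wild-type H3K27ac regions that overlap a region of the HD list (vertical axis, %) by class of wild-type fold enrichment (horizontal axis), for 3 kinds of region. The regions without Mnx1 (blue) go from 56.6% in the weakest class to 100% in the strongest and lie under the other kinds in the first 4 classes.

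The reverse comparison gave the same order. HD had 7892 H3K27ac regions without H3K4me3 in HD and without the wild-type Mnx1 regions, of which 59.5% overlapped the wild-type list, against 85.8% of its 1640 distal regions with Mnx1 and 93.7% of its 11166 regions with H3K4me3. Regions thus differed between the lists in both directions.

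Loss from the H3K27ac list mostly left H3K4me1 in place. Of the 1931 regions not listed in HD, 1687 (87.4%) had H3K4me1 in wild type and 1574 (81.5%) in HD. Of the 4629 still listed, 4437 (95.9%) had it in wild type and 4369 (94.4%) in HD. H3K4me1 seen in wild type was missing in HD at 156 of the 1687 and at 126 of the 4437, so more often at the unlisted regions. The strongest of the 1931 lay near Pdha2 (4.60), inside Cntn1, which encodes the adhesion protein contactin (4.42), and near Snrpb2 (4.36). Nwd2, a gene for a protein with NACHT and WD repeat domains, held the seventh (chr5:63700826-63702987, 3.93), which lay in its body.

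RNA of the linked genes was then compared between HD and wild-type motor neurons. In the fit of all 6 motor neuron libraries, 0.173% of 15565 genes were called by edgeR (adjusted p under 0.05), 0.135% higher in HD and 0.0385% lower (21 and 6 genes). Leaving out any single wild-type or HD library left no edgeR call, with 525 to 640 genes at an unadjusted p under 0.05. Of the 1973 tested genes with a linked region, 5 were higher, Chl1, Lypd1 and Sema3c among them, and 2 lower (Nwd2 and Lix1). In the fit of the 4 wild-type and HD libraries alone, 2.21% of 15182 genes passed, 1.71% higher and 0.507% lower (259 and 77).

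Nwd2 had 3 regions, none in the HD list, all with H3K4me1 in both genotypes. It was at 66.7 and 53.3 CPM in wild type, 9.48 and 10.8 in HD, 56.7 and 73.5 in EH and 0.0214 and 0.0221 in ES cells. HD lay below all other motor neuron libraries, and the log2 difference was -2.57 ± 0.19 (edgeR adjusted p = 0.01), and EH overlapped wild type (0.09 ± 0.16, edgeR adjusted p = 0.72). Lix1, of which 1 of 2 regions was missing in HD, was at 16.3 and 17.0 CPM in wild type, 6.98 and 7.35 in HD and 15.2 and 17.1 in EH, and its HD change was -1.22 ± 0.15 (edgeR adjusted p = 0.0498).

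The genes that were higher kept their regions, with 1 exception among 5 (20%). Of all tested coding genes with a region, 37.6% had a region missing in HD. Chl1, a neural adhesion molecule of the L1 family, had 2 regions, both in the HD list, and was at 34.7 and 42.4 CPM in wild type, 164 and 148 in HD and 42.7 and 50.9 in EH. HD stood above all other libraries, by 2.01 ± 0.14 on the log2 scale (edgeR adjusted p = 0.01). Lypd1, with 1 region, was at 66.8 and 86.7 CPM in wild type, 261 and 277 in HD and 38.0 and 48.4 in EH, again with HD above all others. Sema3c, a secreted semaphorin, was the exception: its 1 region was not listed in HD, and its level was 35.7 and 35.3 against 61.3 and 65.3 CPM.

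Genes that had lost several regions from the list were lower in HD more often than higher. Of 43 tested genes with 3 or more linked regions not in the HD list, 35 had a log2 fold change below 0 (81.4%), with a median of -0.17. Genes with 3 or more regions all still listed had 50 of 126 below 0 and a median of 0.06, and genes without a region 54.3% below 0 and a median of -0.02. With 1 region missing the median was -0.01 (n = 591), and with 2 it was -0.02 (n = 108), so only the genes with 3 or more missing regions had a median further from 0. In EH, which shares its wild-type libraries with the HD comparison and has no ChIP here, the 43 genes had a median of 0.26, with 33 above 0. Of the 43 genes, 35 also had a linked Mnx1 region (27 below 0 in HD, median -0.24) and 8 had none (8 below 0, median -0.09).

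**Figure D4:**
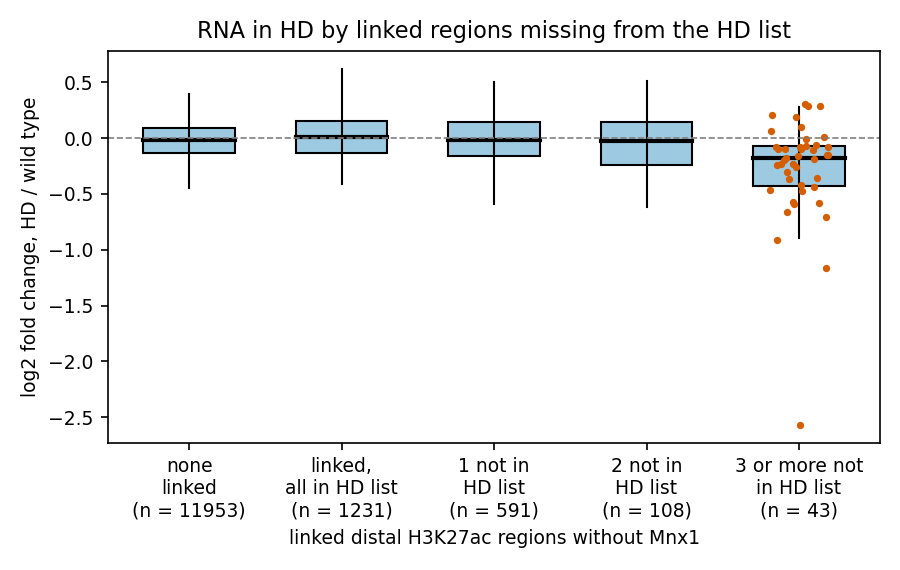
Log2 fold change of RNA in HD against wild-type motor neurons (vertical axis) for coding genes grouped by their linked distal H3K27ac regions without Mnx1 and how many of these were missing from the HD list (horizontal axis). Lines mark the median, boxes the quartiles, whiskers the 5th and 95th percentiles, and orange points the 43 genes with 3 or more missing regions, of which 35 lie below 0.

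Calls were counted in the fit of 4 libraries. Of 43 tested genes with 3 or more missing regions 6 were called, all lower, and of 1212 with every region kept 4 were lower (0.330%) and 70 higher (5.78%). Seen from the calls, 27 of 65 lower coding genes (41.5%) had a region missing in HD, as had 23 of 240 higher ones (9.58%) and 732 of 13668 tested (5.36%). Among genes that had any region, those shares were 87.1%, 24.7% and 37.7%. With links only within 20 kb the shares were 13.8% of lower, 1.67% of higher and 1.98% of tested coding genes. Lhx4 and Nyap2 were picked as examples after these values were seen.

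Lhx4, a LIM homeodomain factor of motor neurons, had 3 regions between 42.5 and 60.7 kb downstream of its start, at 2.17 to 2.46 enrichment. None was in the HD list, while H3K4me1 regions overlapped all 3 in both genotypes. Lhx4 RNA was at 166 and 137 CPM in wild type, 76.1 and 59.6 in HD and 195 and 231 in EH. HD thus lay below and EH above wild type, without overlap. The HD change was -1.17 ± 0.16, with an edgeR adjusted p of 0.06 in the fit of 6 libraries and 0.0053 in that of 4. Nyap2 had lost 8 of 9 regions from the list and went from 122 and 99.6 to 70.7 and 65.4 CPM in HD, with 123 and 182 in EH (HD change -0.71 ± 0.19, edgeR adjusted p = 0.44 with 6 libraries and 0.021 with 4). Its remaining region, chr1:81090272-81093658, had 3.68 in wild type and 3.22 in HD. In both genes the 2 HD libraries were the lowest of the 6 motor neuron libraries.

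**Figure D5:**
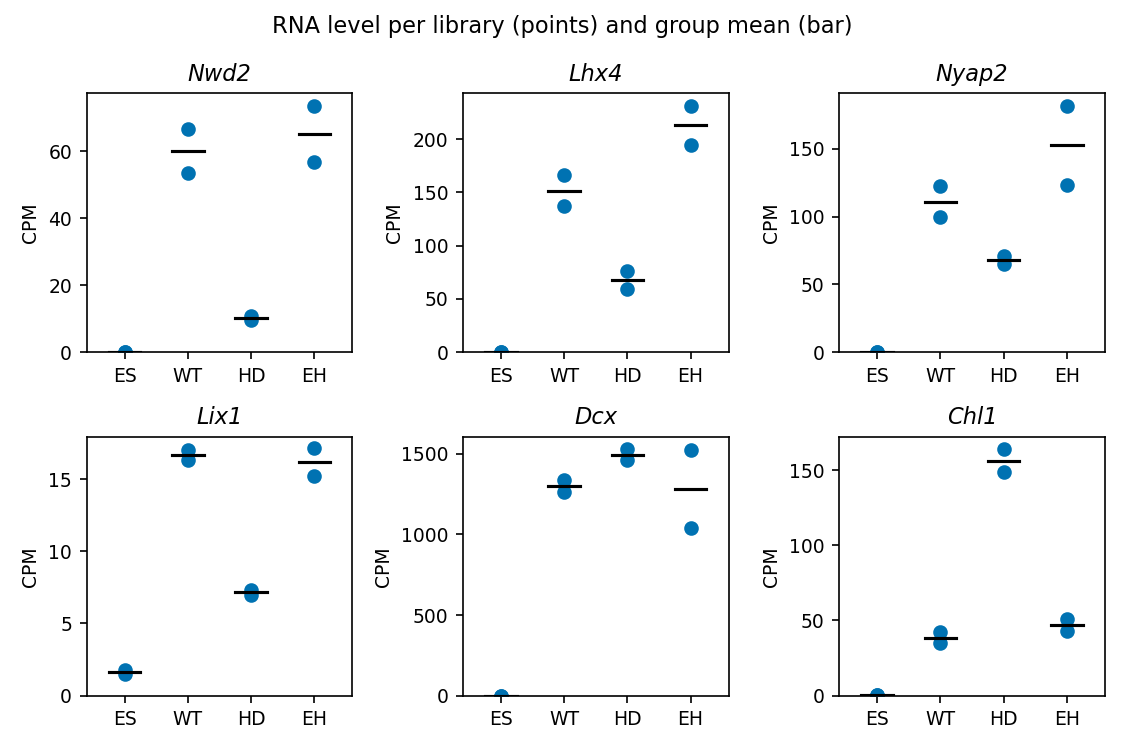
RNA level in CPM (vertical axes, from 0) of 6 genes in each library (points), with the mean of the 2 libraries of a group (bar), for ES cells and for wild-type, HD and EH motor neurons. Nwd2, Lhx4, Nyap2 and Lix1, with 1 to 8 regions missing from the HD list, are lowest among motor neurons in HD, whereas Dcx and Chl1 kept all their regions.

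Of the 43 genes, 8 had a log2 fold change above 0. Among these Meis1 had lost 5 of 14 regions and was at 240 and 216 CPM in HD against 192 and 181 in wild type (0.29 ± 0.19, edgeR adjusted p = 0.977). Rbfox1 had lost 3 of 8 and was at 168 and 147 CPM against 127 and 128 (0.30 ± 0.17, edgeR adjusted p = 0.977). Both were higher in each HD library, but neither passed the test. Nkx6-2, a homeodomain factor of ventral progenitors with all 3 of its regions missing, was at 32.3 and 31.1 CPM in HD against 46.9 and 34.7 (-0.37 ± 0.18, edgeR adjusted p = 0.974). Rbfox3 (NeuN) kept all 6 and was at 73.5 and 65.1 CPM in HD against 33.9 and 31.5, without overlap (1.08 ± 0.16, edgeR adjusted p = 0.072 with 6 libraries and 0.0017 with 4).

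In EH motor neurons 21.2% of 15565 genes passed the edgeR test, 9.61% higher than in wild type and 11.6% lower. The EH libraries were deeper, with 39761539 and 39685334 counts against 13916920 and 13899538 in wild type. Depth and line go together here, and the part of depth in these calls was not tested. Of the 1973 tested genes with a linked region, 298 (15.1%) were higher and 239 (12.1%) lower, and of those without any linked Mnx1 region 12.8% and 14.9%. Genes that had both these regions and distal regions with Mnx1 were higher in 21.5% and lower in 5.81% of 344. All genes together gave 3301 EH calls. Leaving out either wild-type library gave fewer calls, and leaving out either EH library gave more. Such a fit has a lone sample in a group, so these counts cannot tell whether the calls rest on single libraries. Arhgap36, an activator of hedgehog signalling, had 4 regions and was at 117 and 95.5 CPM in wild type and 378 and 490 in EH, a change of 2.00 ± 0.16 (edgeR adjusted p = 0.0028). Msi2, an RNA-binding protein, was higher by 1.53 ± 0.11 (edgeR adjusted p = 0.0025). Msi2 was at 39.4 and 39.0 CPM in wild type and 104 and 126 in EH.

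Other linked genes changed in EH as well. Cntn2, an axonal adhesion protein with 5 regions, was at 513 and 419 CPM in wild type and 1306 and 2059 in EH (1.83 ± 0.23, edgeR adjusted p = 0.006). Cyp26b1, with 5 regions, was at 236 and 487 in wild type and 34.6 and 108 in EH (-2.36 ± 0.54, edgeR adjusted p = 0.026), and Meis1 was at 318 and 486 in EH (1.08 ± 0.19, edgeR adjusted p = 0.013). Wild type and EH do not overlap for any of these genes. Markers of other cells moved in EH too. Trophoblast genes were lower in 9 of 10 tested (median -2.10), with a summed level of 891 to 903 TPM in wild type, 736 to 972 in HD and 110 to 264 in EH. In the endoderm and epithelium list 1 gene was higher and 4 lower of 10 tested (median 0.41). Its summed level was 1173 to 1451 TPM in wild type, 1014 to 1323 in HD and 508 to 707 in EH, to which Krt18 gave 479 and 600 in wild type and 276 and 204 in EH. In the mesoderm, muscle and endothelium list 1 was higher and 1 lower of 8 tested (median -0.39), and Mesp1 and Myod1 were at 0 in wild type. Its summed level of 122 to 137 TPM in wild type, 110 to 140 in HD and 41.5 to 69.1 in EH was mostly Cdh5 in wild type, with 103 and 122 there and 40.8 and 18.0 in EH. The part of other cells in the EH values above was not tested.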

How the data were processed

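ChIP-seq and RNA-seq of mouse cells were analysed from the deposited tables. Per the submitters' processing notes, tools named are Trim Galore, STAR, RSEM, Bowtie2, SAMtools, MACS2, Subread, featureCounts and DESeq2, with build mm10. The authors deposited RSEM expected counts and TPM per gene. The peak lists hold a fold enrichment (a ratio to background) and a −log10 q for each region, as the authors deposited them in the MACS2 column layout, with 1 list per mark and genotype. The members and gene lists were chosen with earlier results of these data known.

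Regions were compared by overlap of at least 1 bp. Entries off the autosomes, X and Y were removed first, and of repeated intervals the one with the highest enrichment was kept. In wild type this left 19174 of 19176 entries for H3K27ac and 110851 of 164498 for H3K4me1. It left 21286 of 28272 for H3K4me3 and 5793 of 5943 for Mnx1. An HD enrichment given for a region is the highest among the HD regions that overlap it, which may be longer than it. Coding genes were linked to a region's midpoint by the nearest start within 100 kb, from the RefSeq promoter table (GRCm38.p6) for 17492 genes and from either gene end for 4395. The RSEM values were rounded to whole numbers, and edgeR 4.0.16 was run on them (R 4.3.3; quasi-likelihood, TMM, filterByExpr, Benjamini-Hochberg over all genes, threshold 0.05), HD and EH against wild type in 6 motor neuron libraries and wild type against ES cells in 8. DESeq2 1.42.0 was an alternative. CPM use TMM sizes. Totals ran from 11167500 to 53223215 counts per library. On simulated data with 200 changed genes, the HD comparison (15565 genes) recovered 61% of 2-fold and 90% of 4-fold changes, with 13 false calls. Those counts were drawn from the fitted spread of each gene, whereas the real HD comparison called 27 genes. Recovery in the real data may therefore be lower.

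Named genes were those with most linked regions, those called, those with the largest changes among genes with 3 or more regions, and list members with a region. No genome was used, so only RefSeq windows and microRNAs inside the regions are printed. Genes without a RefSeq window are not shown. Some genes that the rule names are not reported here.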

Additional observations from a re-analysis of the deposited data

How the results depend on the processing

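The count of regions moved little with the rule: 6560 became 5612 with a −log10 q of 2 or more, 6339 without regions within 1 kb of the H3K4me3 or Mnx1 lists, and 6619 when only Mnx1 regions with a −log10 q of 5 or more counted. The share in the HD list was 74.6% for regions with −log10 q of 2 or more and 64.3% where 50% of the length had to be covered, and the H3K4me1 share was 94.2% and 90.2%. The share of linked genes higher than in ES cells was 48.0% with every gene within 100 kb, 57.0% by DESeq2 and 60.0% within 20 kb. The HD calls (27) depend on the processing: DESeq2 gave 182, no filter 142, the 4 libraries alone 336, a replicate block 0 (765 with an unadjusted p under 0.05), and leaving out 1 library 0 to 0 (525 to 640 unadjusted). EH calls (3301) were 2080 with the replicate block, 2121 with the 4 libraries alone, 4289 with a crossed block chosen after seeing the data, and 96 to 5925 without 1 library, where the lone sample is assumed to vary like the others. The same range for ES cells was 11942 to 12301. Library numbers are only shared: correlations of deviations were 0.102 for HD with wild type, -0.110 for EH and -0.023 for ES cells. Robo2 in EH went from -0.02 to 0.34 without EH replicate 1 and -0.46 without EH replicate 2, and the cause was not tested. The share of HD-lower coding genes with a missing region was 41.5% with 4 libraries, 2 of 5 genes with 6, 53.6% by DESeq2, 41.7% with no filter and 13.8% with links within 20 kb. The median of genes with 3 or more missing regions stayed between -0.21 and -0.13 in all fits, an alternative added after seeing the data. Depth limits low genes most in HD, whose libraries are the shallowest.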
